A study of Sus scrofa with 2 samples.

Results

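NKG7 and NLRP3 are the study's macrophage markers in pig skin, where clusters were named by database matching and by markers of earlier skin studies. Both symbols stand once in the gene list of each library, so the members were 2 of 31908 genes. Their UMIs (unique molecular identifiers, which count each captured transcript once) were read in mast, T or NK, macrophage and dendritic cells. The cells came from the dorsal skin of healthy male farm pigs, dissociated with enzymes. One droplet library (10x Genomics 3′ kit) was made from fresh cells, labelled with no treatment, and one from frozen cells, kept in FBS with 10% DMSO and thawed. Dead cells and aggregates were removed by sorting, and the animals behind each library were not given. The extraction text is the same for both samples and describes freezing, while titles and treatment labels mark one sample as fresh. With 1 library per condition no test was possible. All intervals below are exact 95% intervals that cover counting error only.

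NKG7 (natural killer cell granule protein 7) is a membrane protein of cytotoxic granules, best known in NK cells and cytotoxic T cells, where it takes part in granule release. NLRP3 is a cytosolic sensor of the NLR family. It recruits the adaptor ASC (PYCARD) and caspase-1 (CASP1) into an inflammasome that matures IL-1β and IL-18 and cleaves the pore-forming gasdermin D (GSDMD). It is best known in macrophages, monocytes and neutrophils.

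The genes lie apart in Sscrofa11.1, the build of the files. NKG7 (ENSSSCG00000003231) spans bases 58496089 to 58497827 of the plus strand of chromosome 6. NLRP3 (ENSSSCG00000013940) spans bases 56892241 to 56977412 of the minus strand of chromosome 2. The 300 bases before each RefSeq gene start are printed because the levels of the pair were correlated over the clusters. For NLRP3 that start is the one of predicted transcripts, and the curated transcript starts further in, at base 56977228. The windows are chr6:58495789-58496088 and chr2:56977413-56977712, each written 5′ to 3′ on the strand of its gene. Capitals mark matches to 5 motifs searched on both strands, which may overlap. They were GATAA as a core bound by GATA factors, CANNTG as the E-box and GAGGAA as a core of ETS factors such as PU.1. TGTGGT stood for the RUNX core and TGANTCA for the AP-1 element.
NKG7: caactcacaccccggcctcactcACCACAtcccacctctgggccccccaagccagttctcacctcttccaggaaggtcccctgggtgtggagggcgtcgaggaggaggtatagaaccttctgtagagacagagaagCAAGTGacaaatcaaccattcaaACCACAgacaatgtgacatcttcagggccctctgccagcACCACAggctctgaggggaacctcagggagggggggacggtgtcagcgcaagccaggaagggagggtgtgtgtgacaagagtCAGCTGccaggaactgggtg
NLRP3: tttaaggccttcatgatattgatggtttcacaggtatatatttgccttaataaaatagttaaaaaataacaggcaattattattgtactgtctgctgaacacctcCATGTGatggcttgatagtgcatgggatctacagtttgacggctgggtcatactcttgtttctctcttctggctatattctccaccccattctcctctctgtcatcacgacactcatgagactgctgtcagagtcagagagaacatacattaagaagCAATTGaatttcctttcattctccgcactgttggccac
Both windows held 2 matches to the E-box, which 69.3% of 20663 windows of protein-coding genes hold. The NKG7 window also held 3 matches to the RUNX core, found in 16.9% of windows. The GATA, ETS and AP-1 letters were matched in neither window and stand in 24%, 26.2% and 6.56% of all windows. The GC content was 59% for NKG7 and 40.3% for NLRP3.

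The cells within the maxima of the study (4500 genes, 30000 UMIs and 10% mitochondrial UMIs) numbered 2775 of 4379 fresh and 4223 of 4860 frozen barcodes. Their median depth was 11017 and 7945 UMIs. They held 647 fresh and 1070 frozen UMIs of NKG7, and 391 and 541 UMIs of NLRP3. The libraries shared 6 cell barcodes. The cells fell into 23 clusters, formed without NKG7 and NLRP3, of which 18 were named from marker lists.

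The mast-like cells (cluster 17, 68 fresh and 82 frozen) carried all 8 measured mast cell markers of 13 listed, with summed levels of 14517 and 14008 CPM (UMIs of a gene per 1000000 UMIs of the class). The stem cell factor receptor gene KIT stood at 4612 and 4242 CPM, and HDC, the histamine-forming enzyme gene, at 2553 and 2246 CPM. IL1RL1, another of these markers, stood at 46.6 and 47.9 CPM, below its 78.5 and 221 CPM in the T or NK-like cluster 16. The other measured markers were highest of the 4 classes in mast-like cells in both libraries. The macrophage-like cells (cluster 7, 138 fresh and 231 frozen) carried 13 of 13 measured macrophage markers, with the scavenger receptor gene CD163 at 448 and 371 CPM and the lectin gene CD209 at 1345 and 3143 CPM. The study called cells with CD163 and CD209 dendritic, whereas here these genes were among the macrophage markers. The dendritic-like cells (cluster 11, 107 fresh and 183 frozen) were led by CD207 and FLT3. Their dendritic markers summed to 2037 and 1937 CPM. The macrophage markers summed to 1901 and 1615 CPM in them and the mast cell markers to 470 and 503 CPM, so this class was less distinct. The T or NK-like cells (clusters 15 and 16, 145 fresh and 254 frozen) carried CD3E at 1229 and 1509 CPM. Of 14 measured T or NK markers, 13 had a UMI in cluster 16 and 8 in cluster 15, in each library. Cluster 15, with 80 fresh and 156 frozen cells, had no UMI of CD2, LCK, CD28, KLRB1 or KLRK1.

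NKG7 and NLRP3 were both highest in mast-like cells, ahead of the cells named macrophage-like here. By the study's naming, cells with CD163 and CD209 were dendritic, and its list of cell types holds no mast cells. Which of the cells here it called macrophages was not tested. Mast-like cells were 2.45% of fresh and 1.94% of frozen cells, and macrophage-like cells 4.97% and 5.47%. NKG7 stood at 626 CPM (interval 533 to 730) in fresh and 734 CPM (636 to 843) in frozen mast-like cells. In macrophage-like cells it stood at 179 CPM (157 to 204) in the fresh and 245 CPM (223 to 268) in the frozen library. T or NK-like cells followed with 119 CPM (99.6 to 142) and 183 CPM (161 to 207). Dendritic-like cells had 65.6 CPM (53.7 to 79.2) and 62.3 CPM (51.6 to 74.6). The intervals of these 4 classes did not overlap in either library. With these classes the order was thus mast, macrophage, T or NK, dendritic in both. The middle of this order depended on how cells were chosen. With classes taken by a gate on marker UMIs, the mast ratio was 6.14 and 4.84 to macrophages but 2.94 and 2.23 to T or NK cells. That places the gated T or NK cells above the gated macrophages in both libraries. Only 42 of 140 fresh and 60 of 194 frozen gated macrophages were in the macrophage-like class. Of the gated T or NK cells 73 of 132 and 135 of 180 were in the T or NK-like class. The frozen T or NK-like cluster 16 also stood above macrophage-like cells, at 323 CPM (275 to 376). NKG7 was 3.49-fold (2.84 to 4.28) higher in mast-like than in macrophage-like cells of the fresh library and 3.0-fold (2.52 to 3.55) of the frozen library. Against T or NK-like cells the ratio was 5.24 (4.12 to 6.66) and 4.02 (3.32 to 4.86). Against dendritic-like cells it was 9.54 (7.43 to 12.3) and 11.8 (9.34 to 14.9). Over the alternative choices of cells and scaling the ratio to macrophage-like cells ran from 3.13 to 6.14 in the fresh and from 2.46 to 6.60 in the frozen library, and that to T or NK-like cells from 2.94 to 5.77 and from 2.23 to 9.70.

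NLRP3 shared the top of this order and not the bottom. Fresh mast-like cells had 381 CPM (309 to 464) and frozen ones 409 CPM (337 to 493). Macrophage-like cells had 128 CPM (109 to 148) and 137 CPM (121 to 155). Of the 4 classes, dendritic-like cells came next with 45.9 CPM (36.1 to 57.6) and 54.5 CPM (44.5 to 66.0). The T or NK-like cells were below them with 22.6 CPM (14.5 to 33.6) and 31.7 CPM (22.9 to 42.7). Mast-like cells were above macrophage-like cells 2.99-fold in both libraries (2.30 to 3.85 in the fresh and 2.37 to 3.75 in the frozen). The ratio to dendritic-like cells was 8.29 (6.07 to 11.3) and 7.52 (5.70 to 9.92), and the ratio to T or NK-like cells was 16.9 (10.7 to 27.6) and 12.9 (9.01 to 18.8). The ratio to dendritic-like cells depended on how cells were chosen. It was 3.16 in frozen cells of 1000 to 5000 UMIs. With classes taken by a gate on marker UMIs in place of clusters it was 138 and 74.6, from 2 and 11 dendritic UMIs. Only 5 of 219 fresh and 15 of 552 frozen gated dendritic cells lay in the dendritic-like class, so the gated ratio mostly compares other cells. The ratio to macrophage-like cells ran from 1.38 to 3.31 in the fresh and from 2.46 to 9.67 in the frozen library over all alternatives.

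**Figure D1:**
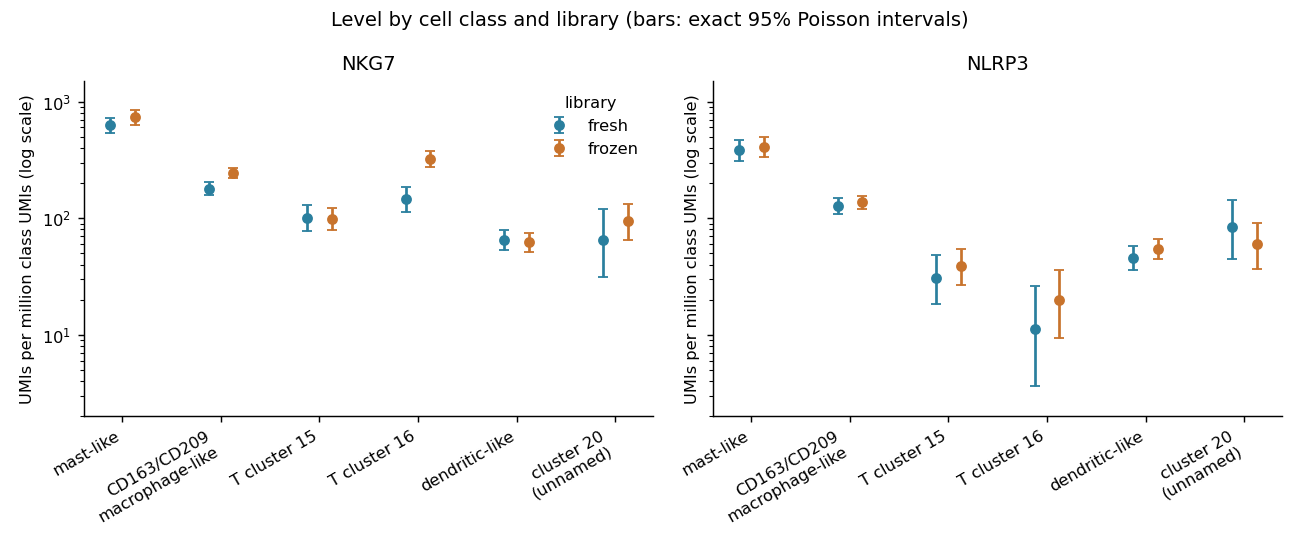
Level of NKG7 (left) and NLRP3 (right) in CPM on a log axis, for each immune class, the T or NK-like clusters 15 and 16 and the unnamed cluster 20, by library, with exact 95% Poisson intervals. Mast-like cells stand highest for both genes, at 626 and 734 CPM for NKG7 and 381 and 409 CPM for NLRP3, and T cluster 16 is high for NKG7 and lowest for NLRP3.

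Of the 9215 genes with at least 50 UMIs over these classes, 17.6% were highest in mast-like cells in both libraries, as both NKG7 and NLRP3 were. Both members were also at least 2-fold higher in mast-like cells, on CPM + 1, than in each of the other classes in both libraries. Over all tested genes that held for 10.7% against T or NK-like, 11.5% against macrophage-like and 14.6% against dendritic-like cells. The mast to macrophage ratio of NKG7 was exceeded by 7.99% of genes in the fresh and 10.7% in the frozen library, and that of NLRP3 by 9.73% and 10.7%. The mast to T or NK ratio of NLRP3 was exceeded by 1.77% and 2.15% of genes, and that of NKG7 by 4.92% and 6.24%.

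By number of molecules the macrophages held more. Macrophage-like cells, the larger class, held 36.9% of the fresh and 43.3% of the frozen UMIs of NKG7, and mast-like cells 24.9% and 18.6%. Of NLRP3 UMIs the macrophage-like cells held 43.5% and 47.9% and the mast-like cells 25.1% and 20.5%. CPM is a share of the RNA captured from a class, and mast-like cells were shallow, with a median of 2750.5 and 2438.5 UMIs per cell against 8194 and 7516 in macrophage-like cells. Counted per cell, the mean of NKG7 was 2.37 UMIs in fresh and 2.43 in frozen mast-like cells, against 1.73 and 2.0 in macrophage-like cells. For NLRP3 it was 1.44 and 1.35 UMIs against 1.23 and 1.12. The order of these means was thus the same per cell, with smaller gaps. No interval was computed for the means, so whether the small NLRP3 gap exceeds counting error was not tested.

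Outside the immune cells both genes were nearly absent. All other cells held 3 UMIs of NKG7 in 2302 fresh cells and 8 in 3429 frozen cells, and 11 and 3 UMIs of NLRP3. At least 1 NKG7 UMI was found in 0.0869% and 0.233% of these cells and at least 1 NLRP3 UMI in 0.304% and 0.0875%, at median depths of 11582 and 8285 UMIs. This level is a point of comparison for the shares that follow, and whether it comes from free RNA was not tested. The named immune classes and cluster 20 held 99.5% and 99.3% of the NKG7 UMIs and 97.2% and 99.5% of the NLRP3 UMIs.

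At least 1 NKG7 UMI was found in 72.1% (59.9 to 82.3%) of fresh and 79.3% (68.9 to 87.4%) of frozen mast-like cells. In macrophage-like cells the share was 57.2% and 68.8%, in T or NK-like cells (median depth 6512 and 4813 UMIs) 42.8% and 38.6%, and in dendritic-like cells (14636 and 9366 UMIs) 46.7% and 41.0%. When each cell was thinned to 1000 UMIs, which left out 6 fresh and 3 frozen mast-like and 4 and 2 macrophage-like cells, NKG7 was found in 32.3% (20.9 to 45.3%) and 45.6% (34.3 to 57.2%) of mast-like cells. The thinned share was 11.2% and 19.7% in macrophage-like, 11.03% and 10.6% in T or NK-like and 4.67% and 2.73% in dendritic-like cells. At equal depth, mast-like cells thus led in both libraries.

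NLRP3 was found in 41.2% (29.4 to 53.8%) and 53.7% (42.3 to 64.7%) of mast-like cells and in 47.1% and 44.6% of macrophage-like cells. In the fresh library this order of mast-like and macrophage-like cells went against their CPM, and the intervals overlapped. Dendritic-like cells held it in 36.4% and 37.2% and T or NK-like cells in 14.5% and 12.6% of cells. Thinned to 1000 UMIs, the share was 17.7% (9.20 to 29.5%) and 26.6% (17.3 to 37.7%) in mast-like, 9.70% and 10.5% in macrophage-like, 6.54% and 7.65% in dendritic-like and 2.07% and 3.54% in T or NK-like cells. The fresh intervals of mast-like and macrophage-like cells (5.27 to 16.02%) still overlapped, and the frozen ones (6.83 to 15.2%) did not.

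**Figure D2:**
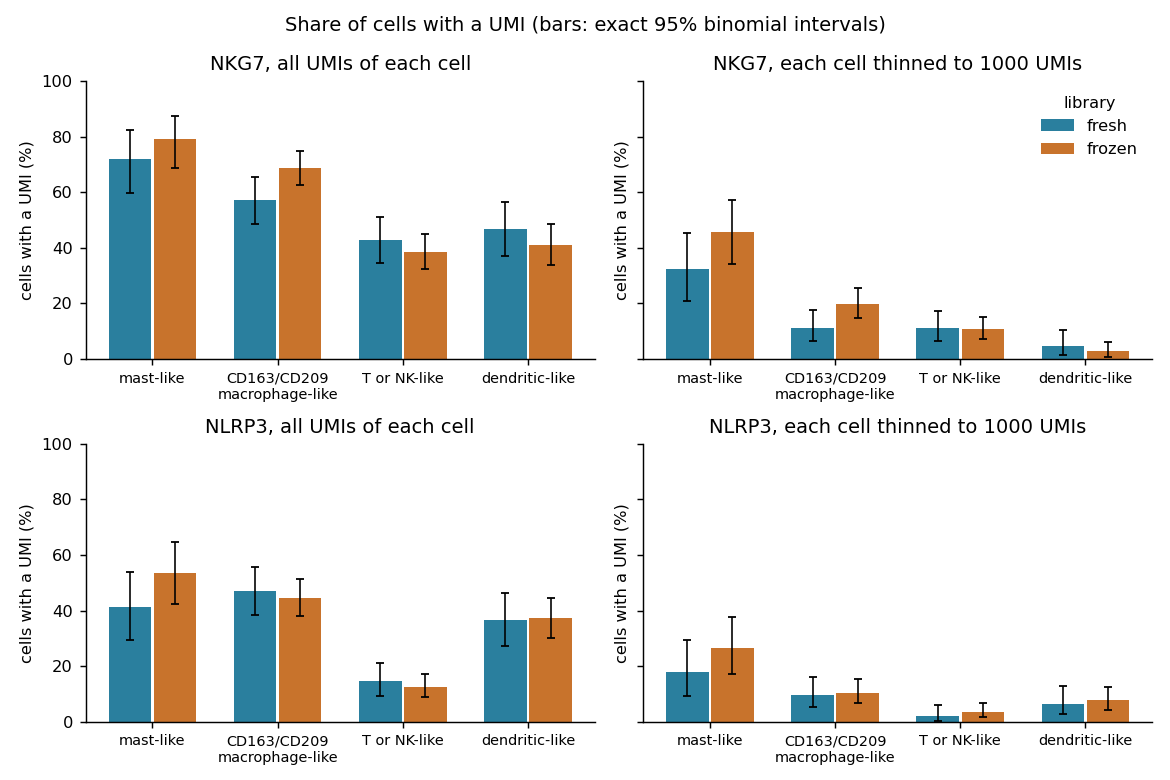
Share of cells, in percent, with at least 1 UMI of NKG7 (top) or NLRP3 (bottom), from all UMIs of each cell (left) and after thinning each cell to 1000 UMIs (right), by class and library, with exact 95% binomial intervals. After thinning, mast-like cells have the tallest bars for both genes, at 32.3% and 45.6% for NKG7.

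Cells within a class were uneven. NKG7 ranged from 0 to 13 UMIs per fresh mast-like cell and from 0 to 24 per frozen one, and 16.2% and 7.32% of them held 6 or more. NLRP3 reached 11 and 10 UMIs in mast-like cells, and 11.8% and 3.66% of them held 6 or more, while 58.8% and 46.3% held none. In macrophage-like cells the highest counts were 11 and 11 UMIs of NKG7 and 16 and 18 of NLRP3. Leaving out the cell with the most UMIs of each class left the ratios of NKG7 to T or NK-like and macrophage-like cells and of NLRP3 to macrophage-like and dendritic-like cells within their intervals, and the other mast ratios were not recomputed in this way.

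**Figure D3:**
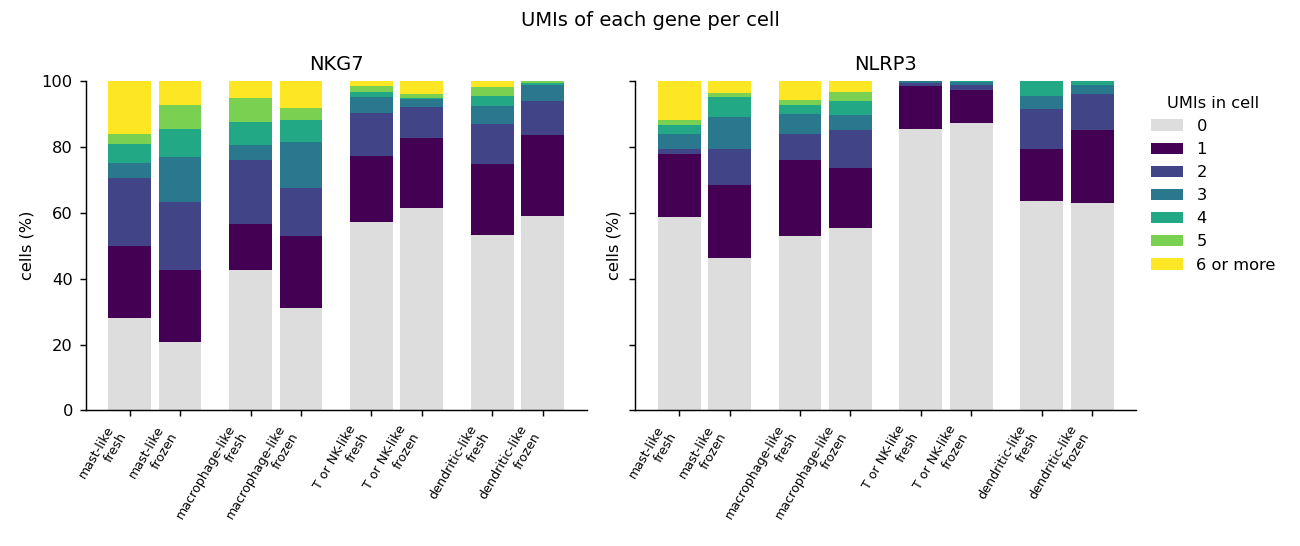
Percent of cells (vertical axis) that hold 0 to 6 or more UMIs (colours) of NKG7 (left) and NLRP3 (right) in each class and library. Mast-like cells have the smallest grey share without NKG7, 27.9% fresh and 20.7% frozen, and T or NK-like cells the largest grey share without NLRP3.

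Within the mast-like cells of the fresh library NLRP3 was lower in the shallower cells. In the 45 fresh mast-like cells of 1000 to 5000 UMIs NLRP3 stood at 210 CPM (133 to 315), and in the 17 cells above 5000 UMIs at 518 CPM (407 to 650). In the frozen cells the intervals overlapped, with 453 CPM (349 to 577) in 63 cells and 367 CPM (269 to 490) in 16 cells. NKG7 stood at 538 CPM and 700 CPM in the shallower and deeper fresh cells and at 836 CPM and 631 CPM in the frozen cells, with overlapping intervals in each library. Restricted to cells of 1000 to 5000 UMIs in both classes, a choice made after seeing the data, the fresh mast to macrophage ratio of NLRP3 fell to 1.38 (log2 0.47, interval -0.53 to 1.51), an interval that includes no difference. The frozen ratio was 4.02. For NKG7 the ratio within this band was 3.80 in the fresh and 6.60 in the frozen library. The median mitochondrial share was 5.05% and 6.09% in mast-like and 3.33% and 2.29% in macrophage-like cells. Its part in the levels was not tested.

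Markers of the other classes were low in the mast-like cells. The T or NK list (14 genes measured) summed to 31.1 CPM and 88.5 CPM there, against 2911 CPM and 3020 CPM in T or NK-like cells, and 2 and 7 of its genes had a UMI. The macrophage list (13 genes measured) summed to 225 CPM and 151 CPM, against 20291 CPM and 26303 CPM in macrophage-like cells. The mannose receptor gene MRC1 made up most of it, with 194 CPM and 129 CPM, while CD163 and CD209 had no UMI in mast-like cells. In the 39 fresh and 55 frozen mast-like cells with no UMI of either list, NKG7 stood at 664 CPM and 751 CPM and NLRP3 at 366 CPM and 372 CPM, with intervals that overlapped those of the whole class. The 53 and 98 macrophage-like cells with no UMI of the mast and T or NK lists had 133 CPM and 237 CPM of NKG7, and 174 CPM and 171 CPM of NLRP3.

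NKG7 and NLRP3 were found together in 25 of 68 fresh and 39 of 82 frozen mast-like cells, and in 45 of 138 and 84 of 231 macrophage-like cells. NLRP3 was found in 51.0% and 60% of the mast-like cells with NKG7 and in 15.8% and 29.4% of those without it. The cells with both were deeper, with a median of 6875 and 3713 UMIs against 1636 and 1428 UMIs in cells with neither, so depth and joint detection cannot be told apart here. In T or NK-like cells 12.9% and 13.3% of cells with NKG7 held NLRP3, against 15.7% and 12.2% of cells without.

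Among T or NK-like cells NKG7 was highest in the cluster led by a cytotoxic gene. Cluster 16 (65 fresh and 98 frozen cells), led by GNLY, the gene of the granule protein granulysin, with IL17F and the lectin receptor genes KLRK1 and KLRB1, had 146 CPM (113 to 186) and 323 CPM (275 to 376) of NKG7. Cluster 15 (80 and 156 cells), with CD3E and ZAP70 among its leading genes, had 100 CPM (77.0 to 129) and 98.9 CPM (78.9 to 122). The ratio of cluster 16 to cluster 15 was 1.45 (1.01 to 2.09) in the fresh and 3.26 (2.49 to 4.30) in the frozen library. NLRP3 had the opposite order, with 11.2 CPM (3.64 to 26.2) and 19.7 CPM (9.44 to 36.2) in cluster 16 and 30.8 CPM (18.5 to 48.1) and 38.9 CPM (26.8 to 54.6) in cluster 15, and these intervals overlapped.

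NKG7 was found in 41.5% of the fresh and 42.9% of the frozen cells of cluster 16, but a minority of cells held most of its UMIs. In its 11 fresh and 17 frozen cells with a UMI of GNLY, PRF1, GZMH, GZMK or GZMM, genes of perforin and granule contents, NKG7 stood at 487 CPM (343 to 672) and 1120 CPM (935 to 1329). Its other 54 and 81 cells had 75.7 CPM (50.3 to 109) and 86.8 CPM (60.1 to 121), at median depths of 5858 and 4071 UMIs against 6361 and 6799 UMIs in the former. GZMA, also among the leading genes of the cluster, stood under more than 1 identifier and was not counted. The other cells may therefore hold it. The cytotoxic cells held 56.9% and 79.3% of the NKG7 UMIs of the cluster. Their counts ran from 1 to 9 with a median of 2 in the fresh and from 0 to 24 with a median of 6 in the frozen library. Without their top 3 cells the levels were 385 CPM and 868 CPM. NLRP3 had no UMI in these cells, which allows up to 39.5 CPM in the fresh and 25.8 CPM in the frozen cells (3 counts per library). The mast-like cells, whose NKG7 (626 and 734 CPM) was below that of these cells in the frozen library and overlapped it in the fresh one, held no UMI of these 5 genes in either library.

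Among the dendritic-like cells, split by CD207 and CCR7, NKG7 intervals lay apart only for the lowest and the highest group of the fresh library. As the extremes, this pair was picked by its values, and the same groups overlapped in the frozen library. With a UMI of CD207, the Langerhans cell lectin, and none of CCR7, NKG7 stood at 47.7 CPM and 49.3 CPM. With CCR7, the receptor of migrating dendritic cells, and no CD207 it stood at 90.7 CPM (67.9 to 119) and 71.8 CPM (49.4 to 101). With both it stood at 39.4 CPM (22.5 to 64.0) and 56.8 CPM (38.6 to 80.6), and with neither at 66.6 CPM and 72.1 CPM. In the fresh library the interval of cells with CCR7 alone lay above that of cells with both, and the other intervals of NKG7 overlapped. NLRP3 stood at 59.6 CPM and 71.7 CPM with CD207 alone, 39.4 CPM and 52.2 CPM with CCR7 alone, 51.7 CPM and 44.0 CPM with both and 41.0 CPM and 52.4 CPM with neither, and its intervals overlapped in each library. The unnamed cluster 20 (15 fresh and 44 frozen cells), led by ARG1, MARCO and CD300C, had 65.01 CPM and 93.96 CPM of NKG7 and 84.5 CPM and 59.8 CPM of NLRP3. Its intervals overlapped those of the dendritic-like cells for both genes in both libraries. In the fresh library its NLRP3 interval (45.0 to 145) also overlapped that of macrophage-like cells (109 to 148). Its fresh NKG7 interval (31.2 to 120) overlapped that of T or NK-like cells (99.6 to 142).

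In mast-like cells the frozen to fresh ratio was 1.17 (0.95 to 1.45) for NKG7 and 1.08 (0.81 to 1.43) for NLRP3, intervals that include no difference. In 2 alternatives the intervals excluded no difference. In cells of 1000 to 5000 UMIs the ratio was 1.55 for NKG7 (log2 0.64, 0.17 to 1.11) and 2.16 for NLRP3 (log2 1.11, 0.40 to 1.86). With mast cells taken by a gate on marker UMIs and not by clustering it was 1.84 (log2 0.88, 0.53 to 1.23) and 1.56 (log2 0.64, 0.19 to 1.10). Of those gated cells 61 of 144 fresh and 75 of 149 frozen lay in the mast-like class. Among 1896 genes with at least 50 UMIs in mast-like cells, 1.48% were at least 2-fold higher and 2.53% at least 2-fold lower in the frozen library, and 62.5% were at least as far from 0 on the log2 scale as NKG7. The ratio of NKG7 was above 1 in macrophage-like cells, 1.37 (1.17 to 1.60), and in T or NK-like cells, 1.53 (1.23 to 1.91), and near 1 in dendritic-like cells, 0.95 (0.73 to 1.25). Within T or NK-like cells it was 2.22 (1.65 to 3.0) in cluster 16 and 0.98 (0.70 to 1.39) in cluster 15. In cluster 16 the 11 fresh and 17 frozen cytotoxic cells described above held 37 and 130 NKG7 UMIs, at 487 CPM and 1120 CPM. The other cells of that cluster stood at 75.7 CPM and 86.8 CPM, with overlapping intervals. In cluster 16, 2.21% of 3306 genes had a higher ratio, and in macrophage-like cells 11.3% of 6135 genes. The ratios of NLRP3 in macrophage-like, dendritic-like and T or NK-like cells were 1.08, 1.19 and 1.40, and their intervals all included no difference. Whether these gaps belong to freezing, to the animals or to the libraries cannot be told apart.

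The cytotoxic granule list asks which granule genes accompany NKG7. Of its 18 genes, 16 were read under a single identifier, GZMA stood under more than 1 identifier and was not counted, and GZMB was not analysed here. Of the 12 with at least 50 UMIs, 4 were highest in mast-like cells in both libraries and 6 in T or NK-like cells, while over all genes these shares were 17.6% and 26.2%. The 6 were PRF1 (perforin), GZMH (a granzyme), GNLY, CTSW and CST7 (a lysosomal protease and an inhibitor of such proteases) and RAB27A (a GTPase that brings granules to the membrane). The first 5 of these had 0 UMIs over all 150 mast-like cells, a limit of 5.68 CPM (3 counts over both libraries). In T or NK-like cells GNLY stood at 659 CPM and 738 CPM, CTSW at 358 CPM and 299 CPM, CST7 at 105 CPM and 144 CPM, GZMH at 61.1 CPM and 99.5 CPM, and PRF1 at 43.3 CPM and 53.8 CPM.

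The 4 granule genes highest in mast-like cells were SRGN, UNC13D, STX11 and STXBP2. SRGN, the proteoglycan core that stores granule contents, had 6213 CPM and 8103 CPM in mast-like cells against 3685 CPM and 5074 CPM in T or NK-like cells. UNC13D (Munc13-4, which primes granules for fusion) had 54.4 CPM and 88.5 CPM against 10.3 CPM and 14 CPM, from 14 and 24 UMIs against 11 and 19. STX11 and STXBP2, a syntaxin and its partner in granule fusion, had 785 CPM and 693 CPM, and 66.1 CPM and 77.5 CPM, in mast-like cells, and 524 CPM and 521 CPM, and 48.9 CPM and 54.5 CPM, in T or NK-like cells. The STXBP2 levels rested on 17 and 21 UMIs in mast-like and 52 and 74 UMIs in T or NK-like cells. Whether that gap exceeds counting error was not tested. RAB27A had 62.2 CPM and 81.1 CPM in mast-like, 248 CPM and 214 CPM in T or NK-like and 1.5 CPM and 1.06 CPM in macrophage-like cells. LAMP1, a lysosomal membrane protein gene, was highest of the 4 classes in macrophage-like cells with 636 CPM and 720 CPM. The unnamed cluster 20, which was not ranked, had 637 CPM and 937 CPM of it. The chemokine gene CCL5 was highest in dendritic-like cells with 2388 CPM and 2842 CPM and had no UMI in mast-like cells.

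At 2-fold on CPM + 1 in both libraries, 1 of the 12 genes (UNC13D) was higher and 7 were lower in mast-like than in T or NK-like cells, where 10.7% and 19.8% of all genes were. Against macrophage-like cells 4 were higher (SRGN, RAB27A, UNC13D and STXBP2) and 2 lower, against 11.5% and 19.3% of all genes. The median log2 ratio of the 12 genes, mast over T or NK, was -3.72 in the fresh and -3.58 in the frozen library, against -0.29 and -0.23 over all genes. GZMK, GZMM, FASLG and IFNG had fewer than 50 UMIs over the 4 classes, and none of those UMIs lay in mast-like cells.

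The inflammasome list asks whether the partners of NLRP3 stand where NLRP3 does. Of its 16 genes 12 were read, and CASP4, IL1B, CARD8 and MEFV were not analysed here. The adaptor gene PYCARD, the protease gene CASP1 and the pore gene GSDMD had 0 UMIs in all 150 mast-like cells, with the same limit of 5.68 CPM. PYCARD stood at 44.3 CPM and 57.7 CPM in macrophage-like and 27.6 CPM and 36.7 CPM in dendritic-like cells. CASP1 stood at 22.5 CPM and 20.6 CPM in macrophage-like and 31.9 CPM and 34.6 CPM in dendritic-like cells, and had no UMI in T or NK-like cells. GSDMD stood at 63.8 CPM and 60.3 CPM in macrophage-like and 25.7 CPM and 36.1 CPM in dendritic-like cells. In the unnamed cluster 20 CASP1 stood at 91.0 CPM and 134 CPM, PYCARD at 39.0 CPM and 65.5 CPM, and GSDMD at 32.5 CPM and 19.9 CPM. NLRP3 at its highest thus stood apart from 3 genes that act after it. These were found in the macrophage-like and dendritic-like cells and in cluster 20.

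The substrate and cytokine gene IL18 had 1 and 2 UMIs in mast-like cells, against 181 CPM and 128 CPM in macrophage-like and 490 CPM and 385 CPM in dendritic-like cells. IL1A, a cytokine gene of the same family, stood at 291 CPM and 184 CPM in mast-like, 433 CPM and 442 CPM in macrophage-like and 986 CPM and 497 CPM in dendritic-like cells. TXNIP, a thioredoxin-binding protein that can bind NLRP3, was highest in mast-like cells with 1298 CPM and 1003 CPM, against 322 CPM and 234 CPM in macrophage-like cells. BRCC3, an enzyme that removes ubiquitin from NLRP3, was also highest there, with 46.6 CPM and 33.2 CPM from 12 and 9 UMIs. NEK7, a kinase that binds NLRP3 during assembly, was highest in T or NK-like cells with 245 CPM and 176 CPM and had 85.5 CPM and 62.7 CPM in mast-like cells. NINJ1, which ruptures the membrane of dying cells, was highest in dendritic-like cells with 441 CPM and 466 CPM and had 66.1 CPM and 162 CPM in mast-like cells.

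Of the 11 inflammasome genes with at least 50 UMIs, 2 were highest in mast-like, 3 in T or NK-like, 2 in macrophage-like and 4 in dendritic-like cells in both libraries, where the shares of all genes were 17.6%, 26.2%, 17.5% and 7.89%. Against macrophage-like cells 1 was at least 2-fold higher in mast-like cells (TXNIP) and 4 were lower (PYCARD, CASP1, GSDMD and IL18), where 11.5% and 19.3% of all genes were. Against dendritic-like cells 2 were higher (TXNIP and BRCC3) and 6 lower, where 14.6% and 16.9% of all genes were. The median log2 ratio, mast over macrophage, was -0.57 and -0.61, against -0.21 and -0.05 over all genes. P2RX7, the ATP receptor gene upstream of NLRP3, had 18 UMIs over the 4 classes and none in mast-like cells.

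Of 16 listed sensors of the NLR family and related genes 8 were read and 6 had at least 50 UMIs. Of the 6, 1 (NLRX1) was highest in mast-like cells in both libraries, where 17.6% of all genes were. NOD2, a sensor of bacterial wall fragments, stood at 128 CPM and 111 CPM in macrophage-like cells and had no UMI in mast-like cells. CIITA, the regulator of MHC class II genes, stood at 298 CPM and 236 CPM in dendritic-like cells and had none either. NLRC3 and NLRC5 were highest in T or NK-like cells, with 70.5 CPM and 65.6 CPM and with 111 CPM and 78.8 CPM. NLRX1, a mitochondrial member of the family, was highest in mast-like cells with 15.5 CPM and 18.4 CPM, from 4 and 5 UMIs. NOD1 had 0 UMIs in fresh and 1 in frozen mast-like cells. NLRP12 had 48 UMIs over the 4 classes and none in mast-like cells, and NLRP6 had 0. The remaining 8 genes, NLRP1, NLRP2, NLRP10, NLRP14, NLRC4, NAIP, AIM2 and IFI16, were not analysed here.

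**Figure D4:**
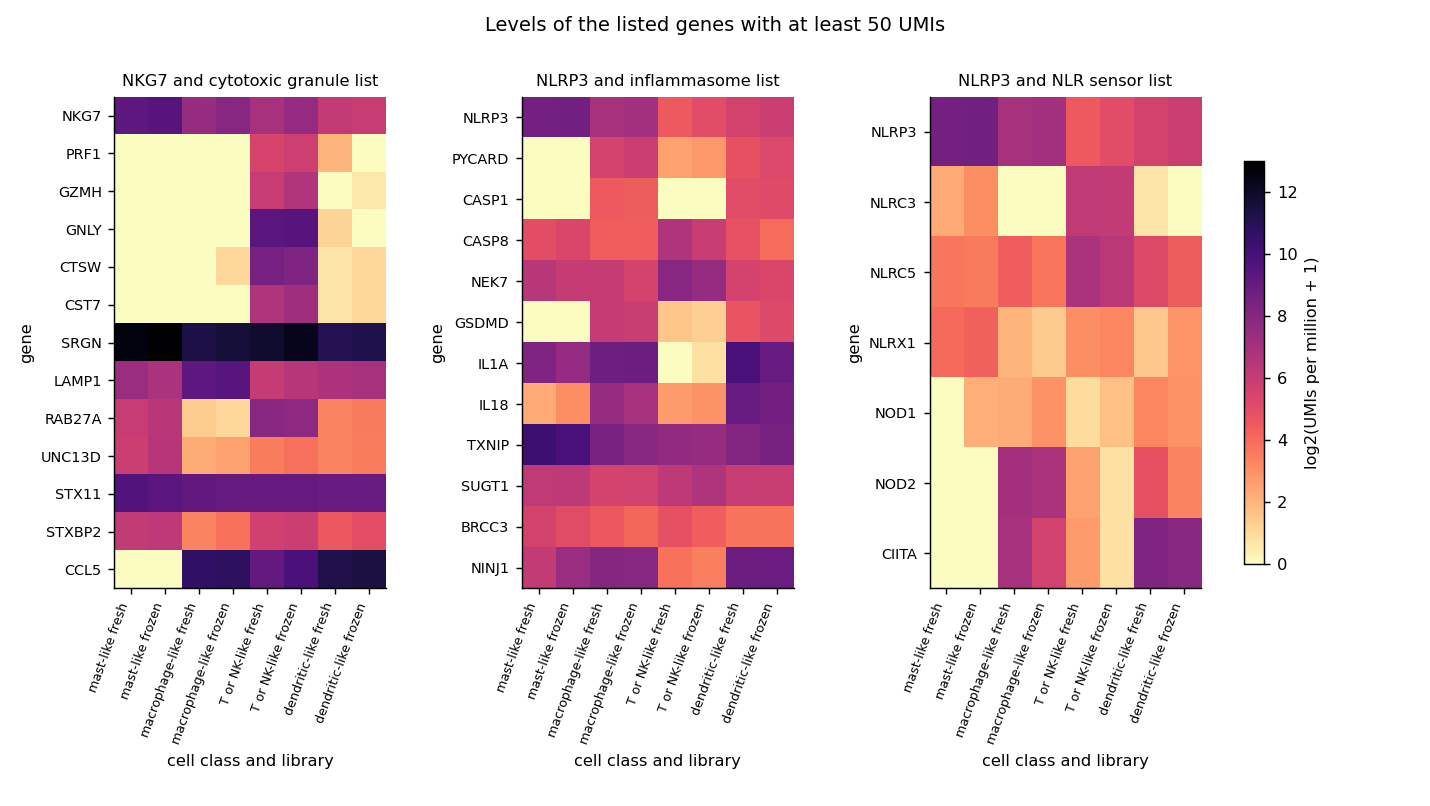
Levels, as log2(CPM + 1) in colour, of NKG7 and the cytotoxic granule list (left), NLRP3 and the inflammasome list (middle) and NLRP3 and the NLR sensor list (right), for listed genes with at least 50 UMIs, by class and library. The mast-like columns are dark for NKG7, NLRP3, SRGN and TXNIP and at 0 for PRF1, GNLY, PYCARD, CASP1 and GSDMD.

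Over all clusters the gene most like NKG7 was LCP2 and the gene most like NLRP3 was RASGRP4. Likeness was Pearson's r of log2(CPM + 1) over 46 profiles (23 clusters in 2 libraries) among 11692 genes with at least 200 UMIs. It is a description, since clusters of 1 library share its depth and most of the range lies between immune and other clusters. Closest to NKG7 were LCP2, an adaptor of immune receptor signalling (r = 0.98), ENSSSCG00000005949, named SLA in the reference (0.97), ADAM8, a leukocyte protease (0.96), NCKAP1L, a blood cell actin regulator (0.96), and ENSSSCG00000036892 (0.96). Closest to NLRP3 were RASGRP4, a mast cell activator of Ras (0.97), NKG7 itself (0.95), LCP2 (0.94), SRGN (0.93) and ENSSSCG00000036892 (0.93). NLRP3 came 11th in likeness to NKG7. In mast-like cells LCP2 stood at 532 CPM and 763 CPM and RASGRP4 at 81.6 CPM and 99.6 CPM.

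**Figure D5:**
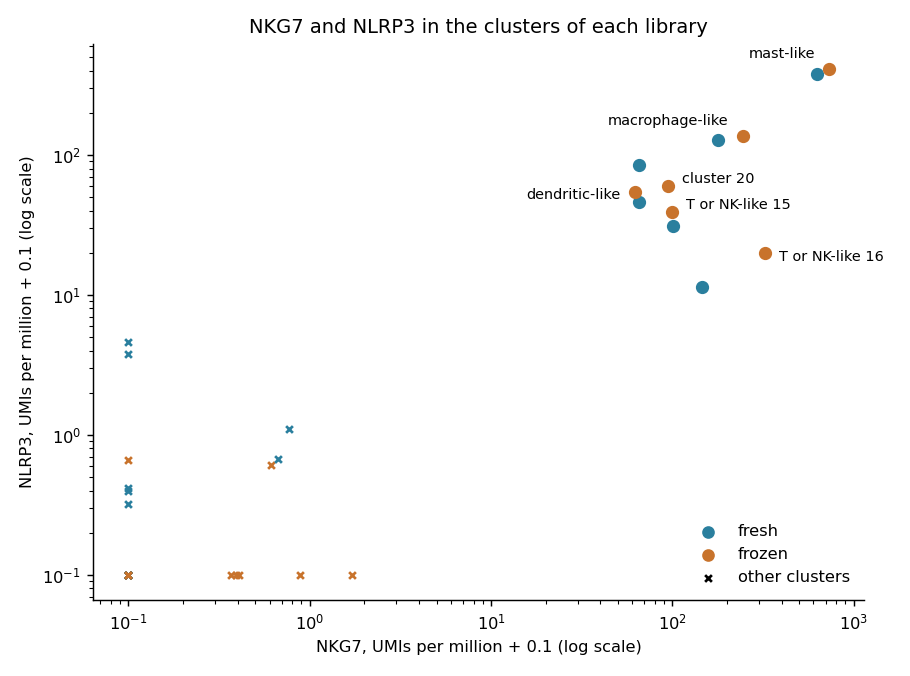
NKG7 (horizontal) against NLRP3 (vertical), in CPM on log axes with a small offset, for the 23 clusters of each library. Dots are clusters of the immune classes and cluster 20, crosses all other clusters. Mast-like cells stand at the upper right, and T or NK-like cluster 16 lies below the others of its NKG7 level, with 146 and 323 CPM of NKG7 and 11.2 and 19.7 CPM of NLRP3.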

How the data were processed

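A pair of 10x Genomics 3′ libraries of pig skin cells, 1 fresh and 1 frozen, were analysed. The authors processed the reads with Cell Ranger 4.0.0 and STAR 2.5.1b (the submitters' processing notes) on Sscrofa11.1 with the Ensembl annotation, and deposited UMI counts per gene and barcode, without normalization. The barcodes hold at least 500 UMIs each, and the matrices sum to 53271738 fresh and 42217632 frozen counts.

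From these counts, cells above 4500 genes, 30000 UMIs or 10% mitochondrial UMIs (13 genes) were left out. The remaining cells, with 32274985 and 36687009 UMIs, were integrated with Seurat 5.3.0 (anchors on 1998 features, without NKG7 and NLRP3, 30 dimensions) and clustered at resolution 0.8 in R 4.3.3. A cluster was named from a marker list when at least 3 of its markers were found in 10% of cells or more and were 2-fold higher than elsewhere, unless another list held more of its top 10 genes. The methods describe sorting out aggregates. No doublet caller was run, so barcodes with mixed cells may remain.

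UMIs were summed per class and library and given as CPM of the UMIs of the class. Intervals were exact Poisson, exact binomial, or exact for a ratio of counts (scipy 1.17.1), and cover counting error only. A count of 0 was given a limit of 3 counts. For counts over all genes, 2-fold was taken on CPM + 1, among genes with at least 50 UMIs. The genes named were the members, the listed genes, the leading genes of immune clusters and the 5 genes most like each member. Members and lists were chosen with earlier results of these data known. Alternatives were TMM (edgeR 4.0.16) and DESeq2 1.42.0 size factors, all barcodes, resolutions 0.4 and 1.2, no integration, both genes allowed in the clustering, a gate on marker UMIs, no top cell, cluster 20 joined to the macrophages and a depth band. The scripts were tested on simulated data.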

Additional observations from a re-analysis of the deposited data

Results flagged for a closer look

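Both members were also present in barcodes outside the study's maxima, which the comparisons above leave out, at levels above those of non-immune cells. Clustered with all other barcodes, 8 fresh and 39 frozen of them fell into the mast-like class, with median depths of 936 and 976 UMIs and median mitochondrial shares of 12.4% and 12.9%. NKG7 stood at 485 CPM (132 to 1241) in the fresh ones, from 4 UMIs, and at 652 CPM (471 to 878) in the frozen ones, from 43 UMIs. NLRP3 stood at 318 CPM (197 to 486) in the frozen ones, from 21 UMIs, and had none in the fresh ones.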

How the results depend on the processing

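The log2 ratios of NKG7 mast over T or NK and over macrophage, of NLRP3 mast over macrophage and over dendritic, and of both genes frozen over fresh in mast-like cells gave 109 values under the alternatives. Of these, 90 lay within the interval of the reported value, 19 did not and 0 changed sign. Under DESeq2 scaling, all barcodes, other resolutions, no integration, clustering with both genes, no top cell, and cluster 20 joined to the macrophages (added after seeing the data) all values lay within it. The other resolutions returned the reported values unchanged, and joining cluster 20 could alter only the ratios to macrophages. The gate kept 1 of 10 values within the interval and the band 2 of 9. TMM scaling, which moved every gene by -0.03 to -0.49 in the mast ratios, gave 1.30 for NKG7 over macrophage (frozen), and 2.60 and 2.42 for NLRP3 over dendritic (fresh and frozen). A gate on marker UMIs without clustering gave 1.55 and 1.16 for NKG7 over T or NK, 2.62 and 2.27 over macrophage, 3.27 for NLRP3 over macrophage (frozen), 7.11 (interval 5.21 to 10.2, from 2 dendritic UMIs) and 6.22 over dendritic, and 0.88 and 0.64 for NKG7 and NLRP3 frozen over fresh, whose intervals then excluded 0. Of its 144 fresh and 149 frozen mast cells, 61 and 75 were in the mast-like class, and of its 219 and 552 dendritic cells 5 and 15 in the dendritic-like class. Of its 140 and 194 macrophages 42 and 60 were in the macrophage-like class. Of its 132 and 180 T or NK cells 73 and 135 were in the T or NK-like class. The band of 1000 to 5000 UMIs, added after seeing the data, gave 3.28 for NKG7 over T or NK and 2.72 over macrophage (both frozen), 0.47 and 2.01 for NLRP3 over macrophage (fresh and frozen), 1.66 for NLRP3 over dendritic (frozen), and 0.64 and 1.11 for NKG7 and NLRP3 frozen over fresh, again with intervals above 0. It left 1 fresh dendritic-like cell, so no value is given there. For the gate and the band the cause was not tested beyond these cell counts.

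No paired analysis was possible because each condition has 1 library, and leaving out a library was not possible for the same reason. The values of the mast-like cells rest on 150 cells with 360 UMIs of NKG7 and 209 of NLRP3, and a count of 0 in them allows up to 5.68 CPM.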
